A study of Mus musculus with 12 samples.

Results

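Ephrins are membrane-bound ligands of the Eph receptors, the largest family of receptor tyrosine kinases in mammals. A class ephrins (Efna genes) are held in the membrane by a lipid anchor and B class ephrins (Efnb genes) by a transmembrane domain with a short cytoplasmic tail. A ligand and a receptor on touching cells can signal in both directions, and the contact often repels growth cones or keeps groups of cells apart. In the developing cochlea, ephrins and Eph receptors are known for their part in the guidance of spiral ganglion axons toward the hair cells. The 8 ephrin ligand genes of the mouse, Efna1 to Efna5 and Efnb1 to Efnb3, were taken by gene name from the 55416 genes counted in each library.

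RNA was sequenced from 12 libraries of mouse hair cells, 6 of inner hair cells (IHCs) and 6 of outer hair cells (OHCs), collected at postnatal day 0 (P0). The labels give every sample as WT, but all animals carried reporters. By the protocol and the methods, IHCs were sorted by the GFP of Atoh1-GFP, and OHCs by GFP together with the red TdTomato that R26-TdTomato makes wherever the Cre of Insm1-GFP-Cre, driven from the Insm1 locus, has acted. Cells came as pools from organs of Corti, and the paper states that each pool held cells from both sexes. The number of pups in each RNA pool is not given in the sources used here. IHC markers (Otof, Slc17a8, Tbx2 and Fgf8) summed to 1833.6 to 4284.5 CPM (counts scaled to a common library size) in IHC libraries and 360 to 687 CPM in OHC libraries, and all 4 were called higher in IHCs. OHC markers (Insm1, Neurod6, Bcl11b and Ikzf2) summed to 2.16 to 23.5 and 105 to 188 CPM, and 3 of 4 were called higher in OHCs. Insm1 is also the locus of the sorting reporter, so its level is no independent check of the gate.

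The libraries held 29564827 to 44017309 counts on genes each. Ribosomal RNA took 21.5% to 56.9% of these counts in IHC libraries and 23.4% to 36.4% in OHC libraries. Levels of a gene are compared between libraries as CPM on library sizes normalized by TMM, a scaling that assumes most genes do not differ. Levels of different genes are compared as TPM, which divides counts by the exonic length of each gene before scaling all libraries to the same total. IHCs and OHCs were compared with the quasi-likelihood test of edgeR over 13269 genes, and a gene is called where its Benjamini-Hochberg adjusted p-value lies under 0.05. Fold changes are of OHCs against IHCs, so a positive log2 value is a higher level in OHCs. Nothing in the labels says that the pools came from separate litters, so p-values measure the spread between these pools.

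Efna5 lies on the minus strand of chromosome 17 of GRCm39 (chr17:62909956-63188312), with 5 exons in its canonical transcript. Efna1 (chr3:89179037-89188449), Efna3 (chr3:89221203-89230272) and Efna4 (chr3:89240695-89245373) follow each other on the minus strand of chromosome 3, with no protein-coding gene between them. The remaining members stand apart, with Efna2 at chr10:80015266-80025844 (plus strand), Efnb1 at chrX:98179680-98205454 (plus strand), Efnb2 at chr8:8667226-8711249 (minus strand) and Efnb3 at chr11:69444918-69451323 (minus strand). No stretch of 100 bases in the transcripts of one ephrin gene was found in those of another, so reads of that length can be assigned to single members.

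The bases just before the annotated start are shown for the ephrin genes with the highest mean TPM in OHCs and IHCs, Efna5 and Efnb2. Each run is the 250 bases before the start, in the direction of transcription, read from GRCm39. Capitals mark an E-box (CANNTG, the motif bound by basic helix-loop-helix factors such as ATOH1, identical on both strands). The windows lie at chr17:63188313-63188562 and chr8:8711250-8711499, both on the minus strand.
Efna5: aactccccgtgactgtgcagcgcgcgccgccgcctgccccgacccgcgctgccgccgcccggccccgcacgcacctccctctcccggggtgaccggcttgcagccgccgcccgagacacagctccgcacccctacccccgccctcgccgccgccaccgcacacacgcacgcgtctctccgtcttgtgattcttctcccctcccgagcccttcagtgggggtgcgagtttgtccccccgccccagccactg
Efnb2: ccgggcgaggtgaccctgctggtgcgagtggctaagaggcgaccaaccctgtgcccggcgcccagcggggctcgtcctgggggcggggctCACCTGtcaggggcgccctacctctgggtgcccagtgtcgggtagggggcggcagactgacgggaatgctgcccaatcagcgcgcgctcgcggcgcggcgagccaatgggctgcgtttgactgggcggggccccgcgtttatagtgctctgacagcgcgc
The Efna5 window held 0 E-boxes and the Efnb2 window 1, where 66.2% of 32851 RefSeq mouse promoter windows of 250 bases (table build GRCm38.p6) held at least 1. The T-box sequence AGGTGTGA, searched on both strands, was in neither window and in 1.12% of the promoters. G and C made up 74.8% of the Efna5 window and 72% of the Efnb2 window. These are counts of letters in short windows and say nothing of factor binding.

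Of the 8 ligand genes, Efna5 alone was called, higher in OHCs, and it separated the cell types without overlap. Over all tested genes, 6.26% were called in either direction, 2.44% as higher in OHCs and 3.81% as higher in IHCs. Of the 7 ligands tested, 1 was called higher in OHCs, 0 were called higher in IHCs and 6 did not pass the threshold. Efna1 had too few counts to be tested. The libraries of the cell types did not overlap for 1 of 8 ligands, against 4.6% of tested genes. The median log2 fold change of the 7 ligands was 0.37, beside -0.04 for all tested genes, and the median size of the change without its sign was 1.16, beside 0.59. That 1.16 is the value of Efna4, a gene with low counts (SE 1.06, 95% interval -1.06 to 3.38), so it is poorly determined. The alternative test DESeq2, which called 16.9% of the genes to which it gave an adjusted p-value, called Efna5 and Efna3 as higher in OHCs and Efna2 as higher in IHCs.

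**Figure D1:**
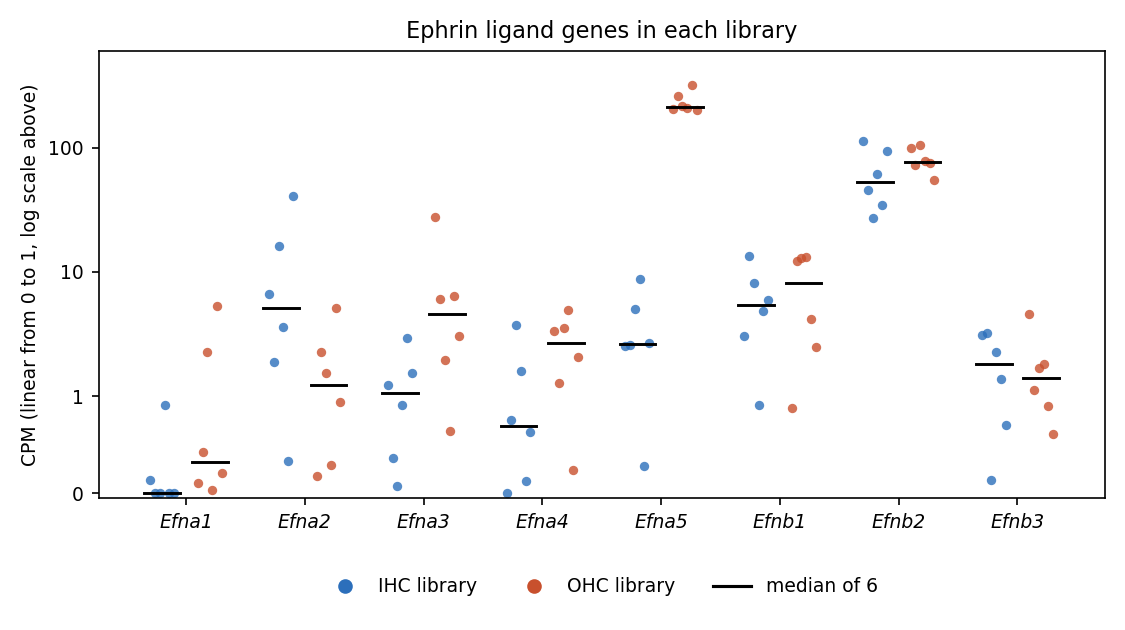
CPM (vertical axis, linear from 0 to 1 and logarithmic above) of the 8 ephrin ligand genes in each of 6 IHC libraries (blue) and 6 OHC libraries (red), with the median of each cell type as a black bar. The OHC libraries lie at 200 to 318 CPM for Efna5, above all IHC libraries (0.276 to 8.79 CPM), while every other ligand overlaps between the cell types.

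Efna5 encodes ephrin-A5, a lipid-anchored ligand known as a repellent cue for growing axons. In IHC libraries 1 to 6 its level was 2.55, 2.61, 5.08, 8.79, 0.276 and 2.67 CPM. In OHC libraries 1 to 6 it was 206, 258, 217, 208, 318 and 200 CPM. Each OHC library thus lay far above the highest IHC library, and the OHC libraries were close to each other (235 ± 45.8 CPM, SD, n = 6). The reads behind these values numbered 9 to 349 in IHC libraries and 7150 to 9555 in OHC libraries. The log2 fold change was 5.99 (SE 0.54, 95% interval 4.87 to 7.11), a 63.6-fold higher level in OHCs, with an adjusted p of 8.99e-07 by edgeR's quasi-likelihood test. By p-value it ranked 7 among 13269 tested genes. Of the other 323 genes called higher in OHCs, 21 had at least the mean OHC TPM of Efna5 and 42 at least its log2 fold change, and 0 had both. With any 1 of the 12 libraries left out, the log2 fold change stayed between 5.74 and 6.47 and the adjusted p between 8.69e-08 and 9.46e-06. In bulk samples, fewer cells that make a transcript and less of it per cell cannot be told apart, which holds for each level given here.

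Markers of endothelium, the lining of blood vessels, were also higher in OHC libraries. In sum, the 10 markers were at 0.523 to 13 CPM in IHCs, with a median of 4, and at 17 to 235 CPM in OHCs, with a median of 72.1. Of the 8 endothelium markers tested, 6 were called higher in OHCs, and Cldn5 and Esam, which form and seal endothelial junctions, were at 0 in all IHC libraries. Efna5 was at 258 CPM in OHC library 2, where the endothelium markers summed to 17 CPM, and at 217 CPM in OHC library 3, where they summed to 235 CPM. Without OHC library 3 the log2 fold change of Efna5 was 6.0 (adjusted p 4.05e-06, edgeR's quasi-likelihood test). The part of endothelial RNA in the level of Efna5 was not tested beyond these values. In the other lists of non-sensory cells, 1 of 8 supporting cell markers was called higher in OHCs and 2 higher in IHCs. In the greater epithelial ridge list (3 of 6 tested) 0 were called higher in OHCs. The same held for mesenchyme (4 of 7 tested), pericyte, glia and neuron markers (4 of 6 tested in each). Of 6 macrophage markers 1 was tested and not called. Of 5 erythroid markers 0 were tested, so that list could give no call.

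**Figure D2:**
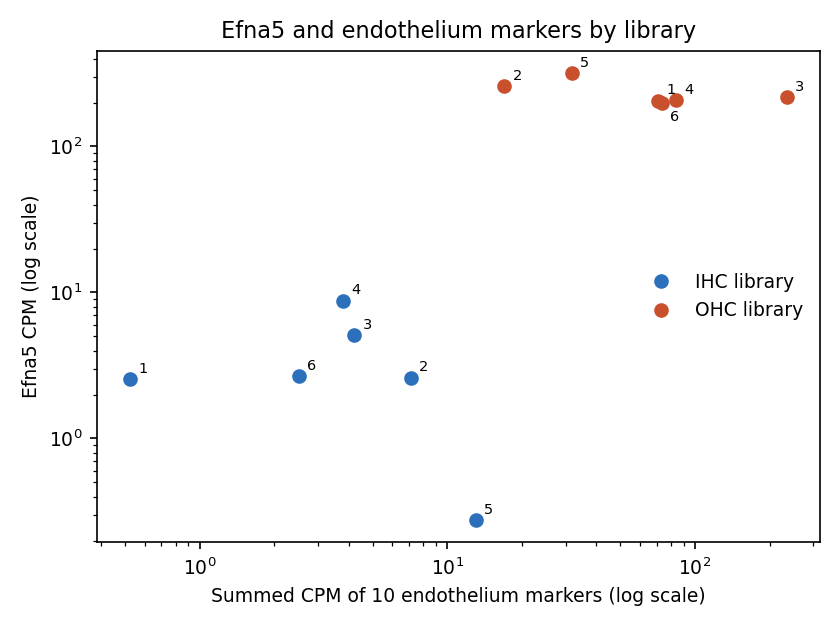
CPM of Efna5 (vertical axis, log scale) against the summed CPM of 10 endothelium markers (horizontal axis, log scale) in each library, numbered by replicate, with IHC libraries in blue and OHC libraries in red. The OHC libraries span 17 to 235 CPM of the markers, while Efna5 stays between 200 and 318 CPM.

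The other A class ligands were low, and they varied between libraries of the same cell type. Efna2, which encodes ephrin-A2, was at 6.61, 1.88, 16.1, 3.6, 0.337 and 40.6 CPM in IHC libraries 1 to 6. It was at 0.172, 2.26, 1.55, 0.291, 5.17 and 0.937 CPM in OHC libraries 1 to 6. Thus 3 IHC libraries lay above all OHC libraries, and the lowest IHC library fell within the OHC range. Its log2 fold change was -2.74 (SE 1.03, 95% interval -4.90 to -0.58) and did not pass the threshold with edgeR (adjusted p = 0.125), whereas DESeq2 gave an adjusted p of 0.0278. Leaving out each library in turn gave log2 fold changes of -3.47 to -1.75, the weakest without IHC library 6.

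Efna3, which encodes ephrin-A3, was at 1.24, 0.366, 0.0785, 0.907, 2.94 and 1.53 CPM in IHC libraries 1 to 6. In OHC libraries 1 to 6 it was at 27.9, 6.1, 1.95, 0.64, 6.44 and 3.07 CPM. In this gene 4 OHC libraries lay above all IHC libraries, and OHC library 1 stood far above the rest. The log2 fold change was 2.70 (SE 1.0, 95% interval 0.62 to 4.79), with an adjusted p of 0.117 by edgeR and 0.0154 by DESeq2. Without OHC library 1 it was 1.62 (adjusted p = 0.389, edgeR). An antisense long non-coding RNA, Gm15998, shares 759 bp of exon with Efna3 and was at 0 counts in all libraries. Likewise 4731419I09Rik shares 168 bp with Efna4 and had at most 5 counts in a library, and Gm45075 shares 702 bp with Efnb2 and had at most 8. A further antisense RNA over Efnb2, 4921522P10Rik, shares 42 bp with it and had at most 40 counts in an IHC library and 283 in OHC library 2.

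Efna4, which encodes ephrin-A4, was at 0, 0.757, 3.74, 1.61, 0.123 and 0.627 CPM in IHC libraries and at 3.34, 1.28, 3.53, 4.97, 0.234 and 2.06 CPM in OHC libraries. The groups overlapped over most of their range, and the log2 fold change was 1.16 (SE 1.06, adjusted p = 0.563, edgeR). Efna1, which encodes ephrin-A1 and is known for its expression in vessels, had 0 counts in 4 IHC libraries and 2 and 36 counts in the other two. It had 5, 14, 84, 1, 160 and 9 counts in OHC libraries 1 to 6, or 0.108, 0.427, 2.28, 0.0291, 5.34 and 0.211 CPM. An exact two-sided permutation test on CPM over the 12 libraries gave p = 0.188, where the smallest p this design allows is 0.00216. Efna1 was highest in OHC library 5, followed by OHC library 3. The endothelium markers, higher in OHC libraries as given above, summed to 70.9, 17, 235, 83.8, 31.8 and 73.4 CPM in OHC libraries 1 to 6. The part of endothelial RNA in the level of Efna1 was not tested. The 3 genes of the chromosome 3 cluster did not peak together. Among OHC libraries Efna3 was highest in library 1, Efna4 in library 4 and Efna1 in library 5.

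Among the B class ligands, Efnb2 was expressed in both hair cell types and did not separate them. Efnb2 encodes ephrin-B2, which is known for marking arterial endothelium. It was at 112, 45.2, 27.2, 61.3, 34.8 and 94.6 CPM in IHC libraries and at 99.3, 73, 104, 77.9, 75.5 and 54.4 CPM in OHC libraries. The OHC values lay inside the IHC range, and the IHC libraries spread more widely (62.5 ± 34 against 80.6 ± 18.2 CPM, SD, n = 6 each). The log2 fold change was 0.37 (SE 0.33, adjusted p = 0.548, edgeR), with a 95% interval of -0.31 to 1.05. The endothelium markers summed to 0.523 to 13 CPM in IHC libraries and to 17 to 235 CPM in OHC libraries. The part of endothelial RNA in the level of Efnb2 was not tested in either cell type.

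Efnb1, which encodes ephrin-B1, ranged from 0.907 to 13.4 CPM in IHCs, with a median of 5.45, and from 0.884 to 13.2 CPM in OHCs, with a median of 8.2. These ranges were almost the same, and the log2 fold change was 0.33 (SE 0.77, 95% interval -1.28 to 1.95, adjusted p = 0.842, edgeR). Efnb3, which encodes ephrin-B3, ranged from 0.131 to 3.25 CPM (median 1.84) and from 0.609 to 4.61 CPM (median 1.41). Its log2 fold change was -0.01 (SE 0.90, 95% interval -1.88 to 1.85, adjusted p = 0.995, edgeR). For both genes the intervals leave room for changes of more than 2-fold in either direction.

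The order of the ligands on the TPM scale differed between the cell types. In IHCs the order by mean TPM was Efnb2 (20.4 ± 14.8, SD, n = 6), Efna2 (16.8 ± 27.3), Efnb1 (3.89 ± 2.85), Efna4 (1.98 ± 2.44), Efna5 (1.81 ± 1.65), Efna3 (1.2 ± 1.2), Efnb3 (1.06 ± 0.699) and Efna1 (0.125 ± 0.29). Every pair of neighbours in that order overlapped in range over the 6 IHC libraries, and Efnb2 exceeded Efna2 in 4 of 6. In OHCs Efna5 led at 134 ± 16.9 TPM, above Efnb2 (34.9 ± 13.1) with no overlap in range. Then came Efna3 (10.4 ± 15.8), Efnb1 (5.98 ± 4.83), Efna4 (5.12 ± 3.56), Efna2 (2.12 ± 1.89), Efnb3 (1.7 ± 1.65) and Efna1 (1.07 ± 1.44), each overlapping its neighbour. Single libraries set parts of these orders. Without OHC library 1, Efna3 was at 4.05 TPM in OHCs, below Efnb1 (7.01) and Efna4 (4.61), and without IHC library 6, Efna2 was at 6.13 TPM in IHCs. Ribosomal and mitochondrial RNA held 56.8% to 77.1% of all TPM, and without them mean TPM of Efna5 was 5.65 in IHCs and 371 in OHCs.

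Shares within the family do not depend on that RNA. Of the summed ephrin TPM, Efna5 held 57.8% to 77.1% in each OHC library (median 71%) and 0.664% to 11.7% in each IHC library (median 3.13%). For Efnb2 these shares were 13.2% to 22.5% in OHCs (median 16.9%) and 22.7% to 73% in IHCs (median 54.6%). These shares fall as Efna5 adds to the sum, and the mean TPM of Efnb2 itself was 20.4 in IHCs and 34.9 in OHCs. Efna2 held 1.96% to 53.4% in IHC libraries, most in library 6 and library 3 (44.8%). A class ligands together made up 15.8% to 64.6% in IHC libraries and 71.7% to 85.1% in OHC libraries. In OHC libraries most of this sum was Efna5, so these ranges are no trait of the class apart from Efna5. Median shares of Efna1, Efna2, Efna3 and Efna4 in IHCs were 0%, 12.9%, 2.06% and 2.4%. In OHCs they were 0.155%, 0.99%, 2.9% and 2.77%. The ratio of Efna5 to Efnb2 on the TPM scale was 0.0109 to 0.257 in IHC libraries and 2.86 to 5.81 in OHC libraries. The summed ephrin TPM was 18.5 to 132 in IHC libraries and 138 to 255 in OHC libraries.

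**Figure D3:**
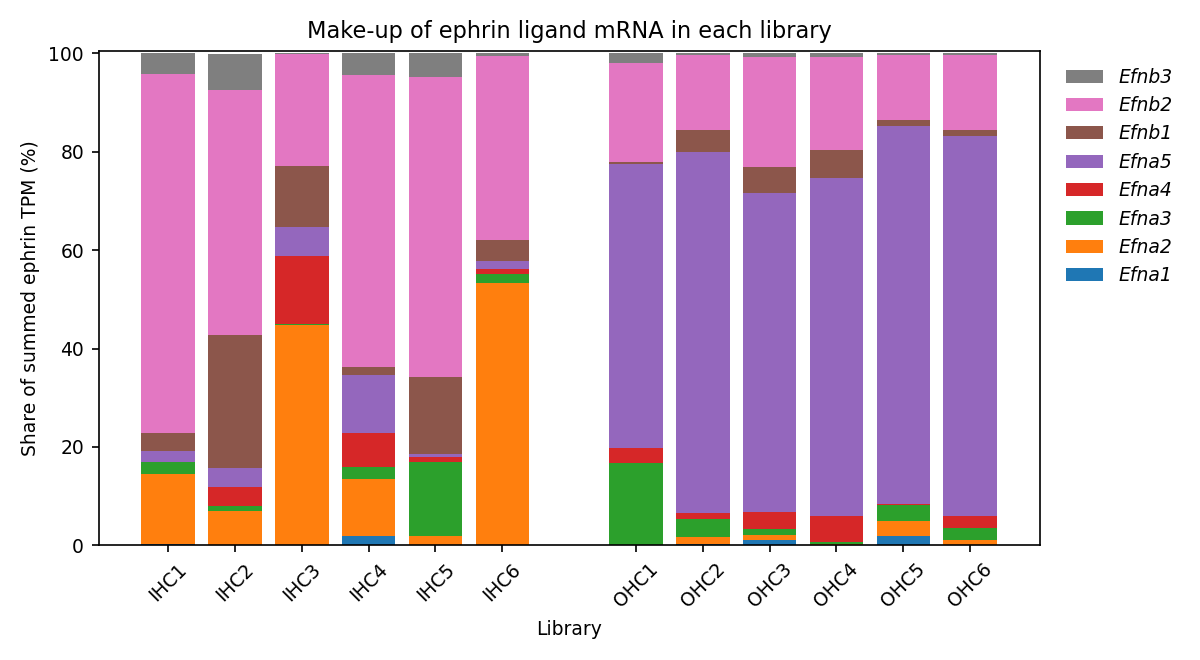
Percent of the summed ephrin TPM (vertical axis) held by each of the 8 ligand genes (colours) in each IHC and OHC library. Efna5 fills 57.8% to 77.1% of each OHC bar and at most 11.7% of an IHC bar, where Efnb2 or Efna2 is largest.

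Among the 14 Eph receptor genes, which encode the receptors of these ligands, Epha7 alone was called, and in the opposite direction to Efna5. Of 10 receptors tested, 0 were called higher in OHCs, 1 was called higher in IHCs and 9 did not pass the threshold, beside 2.44% and 3.81% of all tested genes. Epha3, Epha6, Epha8 and Epha10 had too few counts to be tested. Epha7 encodes a receptor of A class ephrins. It was at 187, 82.1, 65.7, 122, 70.8 and 95.2 CPM in IHC libraries 1 to 6 and at 7.01, 18.1, 37.3, 36.5, 22.5 and 7.3 CPM in OHC libraries 1 to 6. All 6 IHC libraries lay above all OHC libraries. The log2 fold change was -2.27 (SE 0.42, 95% interval -3.15 to -1.39), a 4.83-fold higher level in IHCs, with an adjusted p of 0.0023 by edgeR. It was called with any 1 library left out (log2 fold change -2.53 to -2.03). Markers listed for spiral ganglion neurons moved the same way, at 1013.9 to 1632.6 CPM in sum in IHC libraries and 307 to 501 CPM in OHC libraries, with 3 of 4 tested called higher in IHCs. Their part in the level of Epha7 was not tested.

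The 3 receptors with the highest mean TPM in either cell type, Epha4, Epha1 and Ephb1, did not pass the threshold. In IHCs alone, Epha7 (18.6 TPM) ranked beside Epha1 (18.5 TPM) and Ephb1 (16.8 TPM). Epha4, which encodes a receptor that binds ephrins of both classes, ranged from 172 to 259 CPM in IHCs, with a median of 221, and from 172 to 307 CPM in OHCs, with a median of 251. Its log2 fold change was 0.20 (SE 0.19, 95% interval -0.21 to 0.61, adjusted p = 0.591, edgeR). On the TPM scale it was the highest receptor in both cell types, at 64 ± 25.6 in IHCs and 90 ± 19.5 in OHCs (SD, n = 6). Ephb1, a receptor of B class ephrins, ranged from 33.6 to 57.6 CPM in IHC libraries and from 19.3 to 92.3 CPM in OHC libraries, with a log2 fold change of 0.13 (95% interval -0.55 to 0.82). Epha1, a receptor of A class ephrins, ranged from 13.3 to 44.7 and from 10.3 to 45.9 CPM, with a log2 fold change of -0.18 (95% interval -1.04 to 0.68). Its exons overlap 1456 bp of Zyx on the other strand, and the strand setting of the counting is not stated.

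Epha5, a receptor of A class ephrins singled out after its values were seen, depended on 1 library. It was at 0.719, 0.147, 0.157, 0.378, 0.153 and 16.8 CPM in IHC libraries 1 to 6 and at 4.25, 11.4, 5.26, 13.5, 8.14 and 14.1 CPM in OHC libraries. IHC library 6 lay above all OHC libraries, and the other IHC libraries below them. The log2 fold change was 1.62 (SE 1.08, adjusted p = 0.405, edgeR), and without IHC library 6 it was 4.92 (adjusted p = 0.00283).

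**Figure D4:**
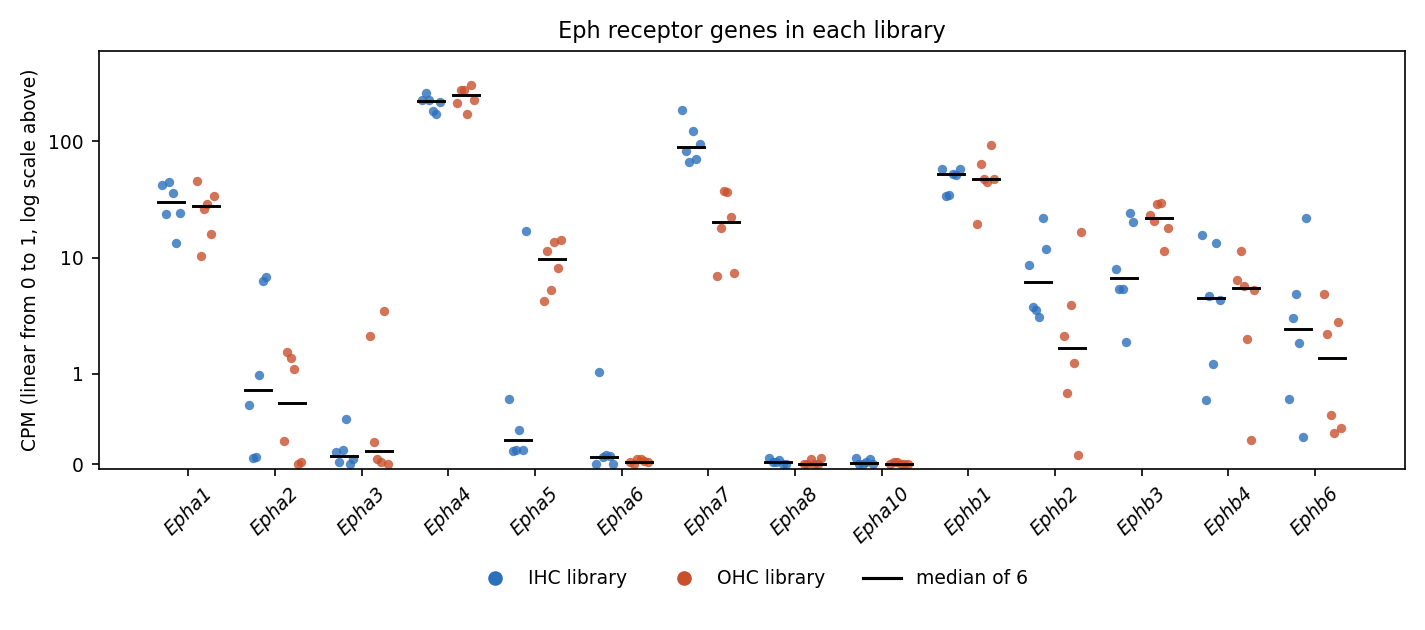
CPM (vertical axis, linear from 0 to 1 and logarithmic above) of the 14 Eph receptor genes in each IHC library (blue) and OHC library (red), with medians as black bars. Epha7 lies at 65.7 to 187 CPM in IHC libraries and 7.01 to 37.3 CPM in OHC libraries, and Epha4 at 172 CPM or more in every library.

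**Figure D5:**
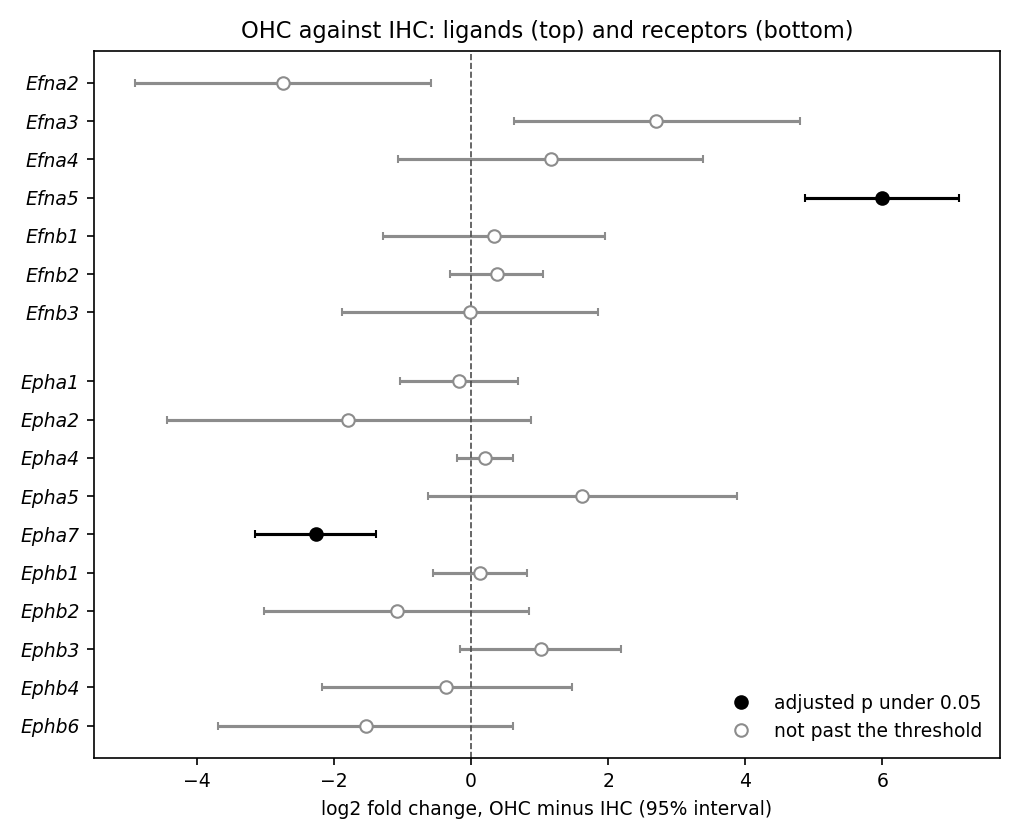
Log2 fold change of OHCs against IHCs (horizontal axis) with its 95% interval for the 7 tested ligands (top) and 10 tested receptors (bottom), filled where the adjusted p was under 0.05. Efna5 at 5.99 and Epha7 at -2.27 are the filled points.

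Genes that act beside ephrins and Eph receptors were read from a list of 34, of which 29 were tested and 0 were called by edgeR's quasi-likelihood test. Of the 32 partners to which it gave an adjusted p-value, DESeq2 called 2 as higher in OHCs and 4 as higher in IHCs, beside the 16.9% it called over all genes. The 2 were Arhgef15 and Fyn, and the 4 were Itsn1, Ngfr, Ntrk2 and Pdzrn3. Fyn had a log2 fold change of 1.60 (adjusted p = 0.159 by edgeR, 0.025 by DESeq2). That of Itsn1 was -1.52 (adjusted p = 0.128 by edgeR, 0.0299 by DESeq2). The 7 exchange factors that link Eph receptors to small GTPases had 5 tested, with a median log2 fold change of -0.54. The 7 regulators and adaptors had 6 tested (median 0.08), the 5 non-receptor tyrosine kinases 5 (median 0.24), the 7 partners of B class tails 6 (median -0.31) and the 5 genes of shedding, dephosphorylation or turnover 5 (median -0.34). Of the 3 co-receptors of A class ephrins, 2 were tested (Ngfr and Ntrk2, median -2.93), and 0 were called. The 4 genes described next were picked after their values were seen. Ngfr, a neurotrophin receptor that can act as co-receptor of A class ephrins, was at 2.3 to 67.8 CPM in IHC libraries and 0.152 to 8.84 CPM in OHC libraries, with a log2 fold change of -2.85 (SE 0.89) and an adjusted p of 0.0605 by edgeR and 0.0109 by DESeq2. Without 1 library, edgeR called Ngfr in 2 of 12 fits. The exact test of edgeR called it (adjusted p = 0.0155). So did the quasi-likelihood test without a filter (adjusted p = 0.0267) and with replicate number as a block (0.00519). The quasi-likelihood test did not call Ngfr with RLE normalization (adjusted p = 0.062) or without ribosomal RNA genes (0.0584). Glia markers summed to 24.6 to 121 CPM in IHC libraries (median 88.7) and 14.6 to 54.2 CPM in OHC libraries (median 27.7), with 0 of 4 tested called, and their part in the level of Ngfr was not tested. Ntrk2, a neurotrophin receptor, was at 1.78 to 13.7 CPM in IHC libraries and 0 to 5.73 CPM in OHC libraries, with a log2 fold change of -3.00 (SE 1.16) and an adjusted p of 0.133 by edgeR and 0.0344 by DESeq2. Pdzrn3, which has a PDZ domain, was at 457 to 804 CPM and 360 to 515 CPM, with a log2 fold change of -0.61 (SE 0.18) and an adjusted p of 0.0534 by edgeR and 0.0119 by DESeq2. Without 1 library, edgeR called Pdzrn3 in 3 of 12 fits. Arhgef15, an exchange factor known from endothelium, was at 0 to 0.0489 CPM in IHC libraries and 0.234 to 12.3 CPM in OHC libraries and missed the count filter of the edgeR fit. It was called higher in OHCs by DESeq2 (adjusted p = 4.52e-11) and by edgeR without a filter. With at most 2 counts in any IHC library, it could pass the count filter only through the OHC libraries. The fits without 1 library that kept it are therefore no further support. The endothelium markers were higher in the same OHC libraries, and their part in the level of Arhgef15 was not tested.

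The neighbours of Efna5 on chromosome 17 were not called. Fbxl17, which encodes an F-box protein and lies 176134 bp beyond the start of Efna5, was at 17.9 to 103 CPM in IHC libraries and 69 to 103 CPM in OHC libraries, with a log2 fold change of 0.39 (95% interval -0.34 to 1.12, adjusted p = 0.554, edgeR). Nudt12, which encodes a Nudix hydrolase and lies 3589588 bp away on the other side, had a log2 fold change of -1.16 (95% interval -2.62 to 0.30, adjusted p = 0.353, edgeR).

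The genes with profiles most like that of Efna5 were sought by the root-mean-square difference of centred log2 CPM over the 12 libraries, where the median tested gene was 3.53 away. Htr3a, a subunit of the serotonin-gated ion channel, was closest at 0.61, with 0.296 ± 0.228 CPM in IHCs and 25.6 ± 5.96 CPM in OHCs (SD, n = 6). Layn, which encodes a hyaluronan receptor, was at 0.97, with 1.51 ± 1.15 and 46 ± 15.2 CPM. The long non-coding RNA Gm10248 followed at 1.11. Insm2, a paralogue of Insm1, at 1.16 and Cyp2j12, a cytochrome P450 gene, at 1.20 were both at 0 in every IHC library, with 5.26 ± 2.14 and 7.24 ± 3.14 CPM in OHC libraries. Likeness here is a description over 12 libraries that share their cell type labels.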

How the data were processed

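Sorted IHC and OHC pools (6 libraries each) were depleted of ribosomal RNA, primed with random hexamers, amplified and sequenced as paired reads of 100 bp. The files the authors deposited hold unnormalized counts, with 55416 genes and 5 HTSeq summary lines each, and these lines (24.2% to 46.1% of the sum) were left out. The submitters' processing notes name Trimmomatic, STAR and HTSeq, and the methods a STAR alignment in 2 passes to GRCm39 with GENCODE vM27 and the intersection-nonempty mode of HTSeq. Versions and the strand setting are not given in the sources used here, so for genes with exons on both strands reads may be lost or misassigned. Amplified reads carry no molecular identifiers.

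From these counts, genes were filtered with filterByExpr (minimum count 10, minimum total 15), normalized by TMM and tested with glmQLFit and glmQLFTest in edgeR 4.0.16 (R 4.3.3), without covariates, and p-values were adjusted by Benjamini-Hochberg over all tested genes. CPM has no pseudocount, and log2 CPM for profile likeness used a prior count of 2. For TPM, gene length was that of all exons merged in GENCODE vM39, where 98.8% of the gene identifiers, with 99.97% of the counts, were found. DESeq2 1.42.0 and other settings were alternatives.

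The members and gene lists were chosen with earlier results of these data known. Genes named are the 8 ligands, called Eph receptors and the 3 with the highest mean TPM, called partners (at most 10), the 5 genes most like Efna5 and its nearest protein-coding neighbours. Exceptions are stated. Libraries were compared in 66 pairs and 0 were identical.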

Additional observations from a re-analysis of the deposited data

Results flagged for a closer look

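For the 8 ligands and the 10 tested Eph receptors, the highest and lowest library of each cell type were compared with the others by Dixon's criterion (36 groups of 6 libraries). In 6 groups a library lay far from the rest. The criterion flags about 1 in 20 groups of normally distributed values. CPM of genes with low counts need not be so distributed, so the 6 groups cannot be set against that rate. Efna1 was at 0.907 CPM in IHC library 4, with the next highest IHC library at 0.131 CPM. OHC library 1 held the highest Efna3, at 27.9 CPM against 6.44 CPM for the next, and the highest Efnb3, at 4.61 CPM against 1.83 CPM. IHC library 6 held the highest Epha5, at 16.8 CPM against 0.719 CPM, and the highest Ephb6, at 21.8 CPM against 4.89 CPM. Ephb2 was at 16.7 CPM in OHC library 6, with the next OHC library at 3.91 CPM. No library of Efna5 or Epha7 stood apart in this way.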

How the results depend on the processing

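Efna5 was called under all alternatives that tested it, among them DESeq2, RLE normalization, the exact test, no filter and the fit without ribosomal RNA genes, and Epha7 under all. A filter of at least 10 counts in every library dropped Efna5 (9 counts in IHC library 5), so 0 ligands were called there. DESeq2 called 2 ligands higher in OHCs and 1 higher in IHCs. Partners called higher in OHCs and in IHCs numbered 2 and 4 with DESeq2 and 1 and 2 without a filter. Those called higher in IHCs numbered 1 with the exact test, with the filter of 10 counts and without ribosomal RNA genes. Over all genes, those called higher in OHCs and in IHCs numbered 1574 and 1326 with DESeq2 and 918 and 893 without a filter, and 519 were called higher in OHCs by the exact test. Leaving out each library gave 0 to 1 receptors and 0 to 1 partners called higher in OHCs, 0 to 2 partners called higher in IHCs, and 225 to 402 and 369 to 551 genes in all called higher in OHCs and in IHCs. The log2 fold change of Efnb3 (-0.01) lay between -0.57 and 0.23 with a library left out and that of Ephb1 between -0.11 and 0.29. Changing sign, Efnb3 reached 0.20, 0.23 and 0.06 without IHC replicates 1, 2 and 4, and 0.08, 0.12 and 0.16 without OHC replicates 2, 5 and 6, and Ephb1 reached -0.11 without OHC replicate 5.

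Without ribosomal RNA and mitochondrial genes, mean TPM was 5.65 (IHCs) and 371 (OHCs) for Efna5 and 62.4 and 94.1 for Efnb2, since that RNA leaves the total. With the longest transcript as length, the mean share of Efnb2 in OHCs was 23.1%, against 17.5%. Whether same-numbered IHC and OHC libraries came from the same pups is not stated. Deviations from the group means of same-numbered libraries correlated at -0.0313 to 0.0184, with 1 of 12 libraries best matched by its own number. Such correlations cannot tell whether pups were shared, since each pool was sorted and amplified on its own. With the replicate block, Efna5 remained called, 1 receptor (Epha5) was called higher in OHCs and 3 partners higher in IHCs, and Efnb3 was at 0.09. Low counts limit what can be said of Efna1, Efna4 and Efnb3. They also limit Efna2, with 8 to 155 counts in OHC libraries, and Efna3, with 3 to 96 counts in IHC libraries.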
